A study of Mus musculus with 4 samples.

Results

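The immunoglobulin constant genes Ighm, Ighd, Ighg3, Ighg1, Ighg2b, Ighg2c and Igha (heavy chains), Igkc and Iglc2 (light chains) and the J chain gene Jchain were followed across 4 single-cell RNA libraries. These 10 genes were taken by name from the 31053 genes of the matrices, whatever their level. The libraries came from FVB mice (genotype spelled VFB in the labels) fed chow and bearing subcutaneous grafts of MycCaP cells, a prostate cancer line derived from HiMyc mice. The mice received either D-CAN, a peptide of D-amino acids that joins a sequence homing to adipose stromal cells with an amphipathic killing sequence, or PBS as the control. Cells were taken from the tumors and from the stromal vascular fraction of subcutaneous adipose tissue (SAT), dead cells and red blood cells were removed, and each tissue and treatment gave 1 library. There were therefore no replicates, no difference between libraries could be tested, and the intervals given are exact 95% intervals that cover counting error only. The number of mice pooled into a library was not given in the sources used here.

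An antibody is built of paired heavy and light chains, and its isotype is set by the heavy chain constant gene that is joined to the rearranged variable segment. Resting B cells carry IgM and IgD, both spliced from a single long transcript. Class switching replaces Ighm with a constant gene further downstream. Plasma cells devote much of their RNA to a single heavy and light chain pair, and the J chain links IgM and IgA into polymers that epithelia can carry into secretions.

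On the mm10 build used for the counts, the heavy chain genes lie in a row on the minus strand of chromosome 12, in the order Ighm (chr12:113418558-113422730), Ighd (chr12:113406604-113416324), Ighg3 (chr12:113356224-113361232), Ighg1 (chr12:113325240-113330523), Ighg2b (chr12:113302965-113307933), Ighg2c (chr12:113285325-113288932) and Igha (chr12:113254830-113260236). Igkc is on the plus strand of chromosome 6 (chr6:70726435-70726966), Iglc2 on the minus strand of chromosome 16 (chr16:19198396-19200351) and Jchain on the minus strand of chromosome 5 (chr5:88519809-88527891). That genome is of C57BL/6J mice, and the effect of strain differences at these loci on the counts was not tested.

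The last 60 coding bases of the secreted heavy chains are shown because they separate the isotypes that the J chain can join from those it cannot: the capitals mark the codon before the last amino acid, whose cysteine binds the J chain in IgM and IgA. They are from the GENCODE annotation of GRCm38, exonic, written 5′ to 3′ on the minus strand and end in the stop codon.
Ighm, chr12:113420867-113420926: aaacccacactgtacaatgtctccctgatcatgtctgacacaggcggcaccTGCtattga
Igha, chr12:113258768-113258827: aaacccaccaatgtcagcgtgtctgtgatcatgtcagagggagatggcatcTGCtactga
Ighg1, chr12:113328976-113329035: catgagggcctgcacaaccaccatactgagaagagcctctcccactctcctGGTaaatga
Ighg2b, chr12:113306389-113306448: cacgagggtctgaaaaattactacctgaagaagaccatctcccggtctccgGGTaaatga
Ighg2c, chr12:113287389-113287448: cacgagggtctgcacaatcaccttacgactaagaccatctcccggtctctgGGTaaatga
Ighg3, chr12:113359665-113359724: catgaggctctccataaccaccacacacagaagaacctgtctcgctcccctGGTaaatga
TGC is a cysteine codon and GGT a glycine codon. Over the last 300 coding bases the gamma genes shared 66.3% to 76% of their bases pairwise, whereas Iglc2 and its neighbour Iglc3 shared 96.3% (289 of 300), so the split of UMIs between these lambda genes is uncertain.

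After cells with fewer than 200 genes were left out, 2761 cells remained in Tumor PBS, 1487 in Tumor D-CAN, 2841 in SAT PBS and 1897 in SAT D-CAN, with 17931020, 15615176, 6660758 and 7414246 UMIs. Median depths were 3578, 5232, 1707 and 2950 UMIs per cell, so the libraries differed in depth, and any 2 libraries shared at most 2 cell barcodes. The member genes were kept out of the clustering. Levels are counts per 1000000 UMIs of the library or class (CPM), and since each molecule was counted once by its 3′ end the level of a gene carries no length factor.

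Summed over the members, the level was 122 CPM (117 to 127) in Tumor PBS, 219 CPM (212 to 227) in Tumor D-CAN, 5236 CPM (5182 to 5292) in SAT PBS and 7765 CPM (7702 to 7829) in SAT D-CAN. A member UMI was found in 10.7% and 8.94% of tumor cells and in 58.0% and 54.3% of SAT cells (PBS and D-CAN in each case). The tissues also differed in which heavy chain led. Igha, the heavy chain of mucosal antibody, had 601 and 830 UMIs in the tumor libraries and 0 and 1 in SAT.

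In SAT the leading heavy chains were Ighm, with 3211 UMIs in PBS and 5772 in D-CAN, and Ighg1, the main IgG subclass of protein antigens, with 3087 and 7134. Ighd had 1676 and 2094 UMIs in SAT and 2 and 1 in the tumors. Ighg3 had 92 and 77 UMIs in SAT and 0 and 1 in the tumors. All but a few of the 1105 Ighg2b UMIs of SAT PBS came from a single cell, and SAT D-CAN had 2. Ighg2c had no UMI in any library, which allows up to 0.0630 CPM over the 47621200 UMIs of all 4.

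Igkc, the kappa light chain, was the member with the most UMIs everywhere: 1228 and 2196 in the tumors and 22237 and 36267 in SAT. Iglc2, a lambda light chain, had 10 and 7 UMIs in the tumors and 2178 and 2328 in SAT. Jchain had 170 and 193 UMIs in the tumors and 1292 and 3899 in SAT. In CPM, Jchain thus lay at 9.48, 12.4, 194 and 526 in the 4 libraries.

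**Figure D1:**
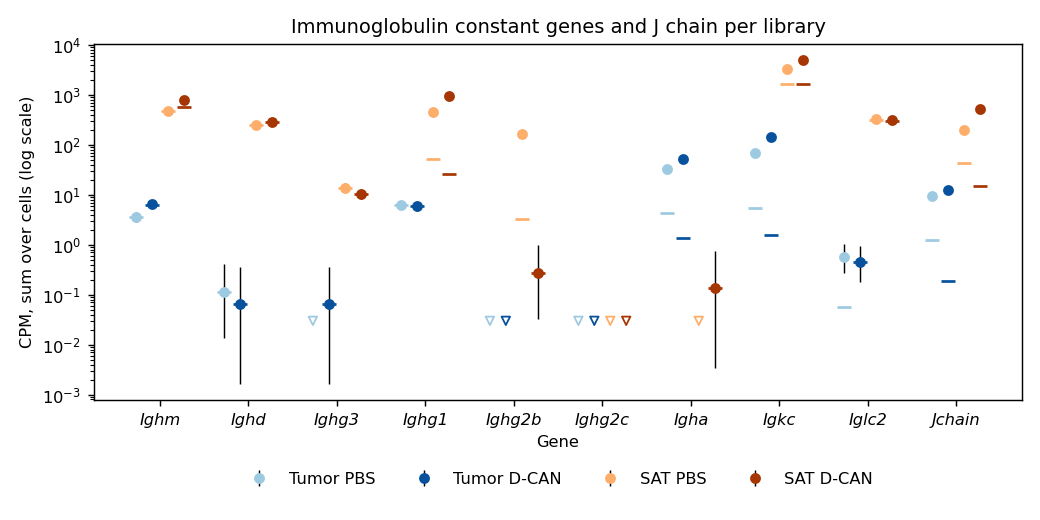
Level of each member gene in the 4 libraries, in CPM on a log axis, with exact 95% Poisson intervals as bars, open triangles for genes with 0 UMIs, and dashes for the level without the cells in which the members took 10% or more of all UMIs. The dashes fall far below the points for Igha, Igkc and Jchain in the tumors and for Ighg1 and Jchain in SAT, but lie close to them for Ighd and Iglc2 in SAT.

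Most member UMIs came from very few cells. The single top cell held 58.9% of the member UMIs in Tumor PBS, 92.8% in Tumor D-CAN, 19.9% in SAT PBS and 15.0% in SAT D-CAN. The top 10 cells held 84.2%, 94.7%, 44.2% and 65.1%. In both tumor libraries 1 cell, in SAT PBS 28 cells and in SAT D-CAN 4 cells were enough for 50% of the member UMIs.

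**Figure D2:**
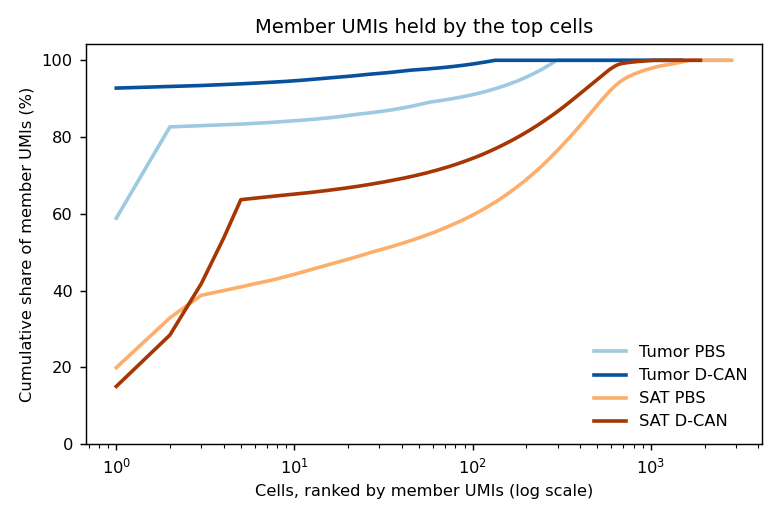
Cumulative share of the member UMIs of a library (y axis, percent) held by its cells, ranked by their member UMIs from the highest (x axis, log scale), with 1 line per library. The tumor lines start at 58.9% and 92.8% with the first cell, the SAT lines at 19.9% and 15.0%.

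The share of a cell's UMIs that fell on the members had a gap. No cell of any library lay between 5% and 10%. The highest cell below the gap had 0.308%, 0.938%, 2.79% and 3.08% in Tumor PBS, Tumor D-CAN, SAT PBS and SAT D-CAN, and the lowest above it 47.9%, 70.3%, 10.8% and 16%. Cells at 10% or more, called antibody-rich here, numbered 2, 1, 17 and 5. Without them the summed level was 21.2 CPM in Tumor PBS, 15.9 in Tumor D-CAN, 2812 in SAT PBS and 2858 in SAT D-CAN. The D-CAN library was above the PBS library of the same tissue over all cells, and below it in the tumor and close to it in SAT once these cells were left out.

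**Figure D3:**
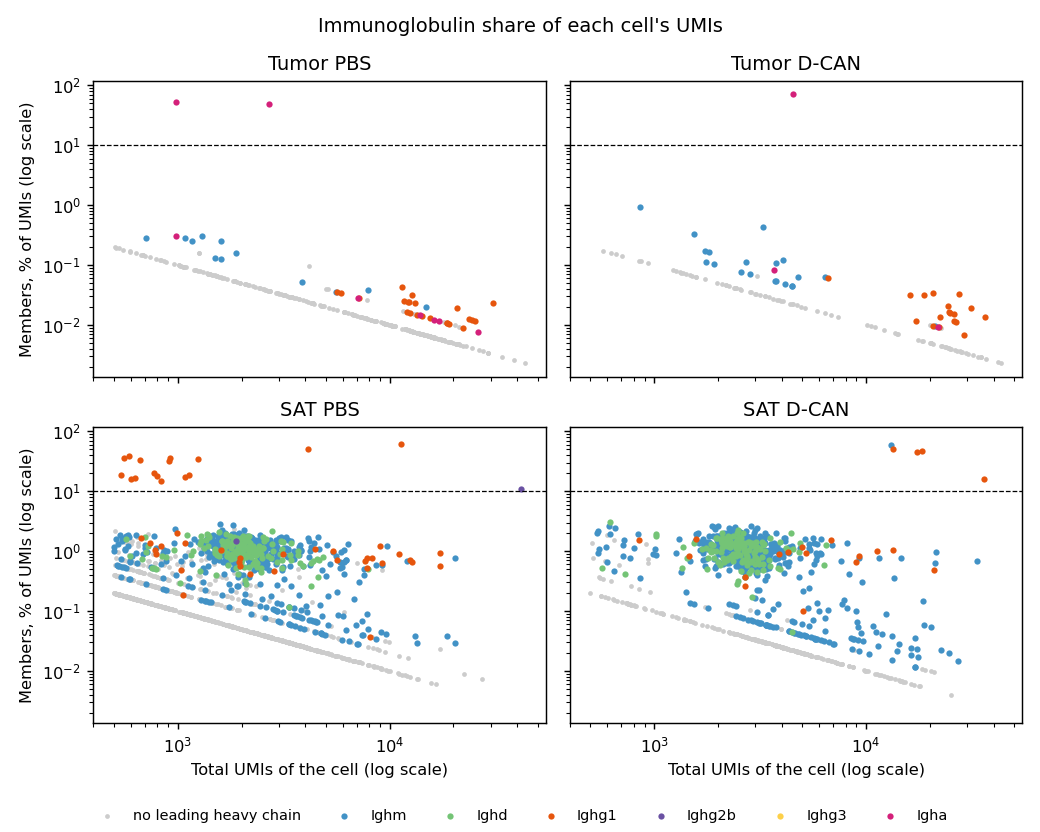
Share of a cell's UMIs on the member genes (y axis, percent) against its total UMIs (x axis, log scale) in the 4 libraries, 1 point per cell with at least 1 member UMI, coloured by the leading heavy chain, with a dashed line at 10%. The 3 tumor cells above the line are led by Igha, and those of SAT by Ighg1 except for 1 Ighg2b and 1 Ighm cell.

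All 3 antibody-rich cells of the tumors were led by Igha. In Tumor PBS one had 317 Igha and 861 Igkc UMIs of 2693 in all (47.9% members), and the other 206 and 269 of 983 (53.0%). The cell of Tumor D-CAN had 809 Igha, 6 Ighm and 2171 Igkc UMIs of 4518 (70.3%). Each also had UMIs of plasma cell genes, with Mzb1 and Xbp1 in all 3, Tnfrsf17 in the deeper one of Tumor PBS and in that of Tumor D-CAN, and Sdc1 and Derl3 in the latter. They lay in clusters that could not be named. The kappa variable gene with the most UMIs differed between them (Igkv6-23, Igkv12-89 and Igkv12-98), but it was read by only 2, 6 and 10 UMIs. These cells held 87.0% of the Igha UMIs of Tumor PBS and 97.5% of those of Tumor D-CAN, and 92.0% and 98.9% of the Igkc UMIs. Igha outside them was at 4.35 and 1.35 CPM. The tumors held hardly any other B lineage cells: 1 cell in Tumor PBS and 2 in Tumor D-CAN had UMIs of at least 2 of 12 B cell markers, and these 3 cells had 0, 8 and 2 member UMIs.

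In SAT PBS, 3 antibody-rich cells had over 2000 UMIs. An IgG1 cell had 1694 Ighg1, 4978 Igkc and 241 Jchain UMIs of 11335 (61.3% members). A further IgG1 cell had 222, 1770 and 51 of 4101 (49.8%). An IgG2b cell had 1082 Ighg2b, 18 Ighg1, 2932 Igkc and 471 Jchain UMIs of 41801 (10.8%), which made up 97.9% of the Ighg2b of the library. Each gave at least 98.3% of its heavy chain UMIs to 1 isotype.

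SAT D-CAN had 5 antibody-rich cells, with 13110 to 36192 UMIs and all with Sdc1, the plasma cell surface proteoglycan. The 4 IgG1 cells had 1480, 1949, 1425 and 2092 Ighg1 UMIs, with members at 46.9%, 44.4%, 50.6% and 16% of their UMIs. The IgM cell had 1478 Ighm, 4741 Igkc and 1451 Jchain UMIs of 13110 (58.8%). Together the 5 cells held 97.4% of the Ighg1, 97.2% of the Jchain and 66.8% of the Igkc UMIs of the library. The pairs of heavy and kappa variable genes with the most UMIs differed between the deep SAT cells in which both were read, but rested on few UMIs. Examples in PBS were Ighv1-9 (30 UMIs) with Igkv19-93 (5) and Ighv8-12 (3) with Igkv12-46 (16). In D-CAN they were Ighv9-3 (12) with Igkv19-93 (23) and Ighv4-1 (5) with Igkv4-86 (8). Ighv1-64 led in the D-CAN cells with Igkv6-15 (4 UMIs) and Igkv4-61 (1 UMI). The lambda variable gene Iglv1 had 25 and 66 UMIs in the cells with Igkv19-93, more than Igkv19-93 itself. It also exceeded the kappa gene in the D-CAN cells with Igkv6-15 (110 against 8), Igkv4-57 (11 against 5) and Igkv4-61 (20 against 4). It was below the kappa gene in the cells with Igkv12-46 (5 against 16) and Igkv4-86 (1 against 8). Whether the cells belong to different clones was not tested.

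The other 14 antibody-rich cells were all in SAT PBS and were shallow, with 540 to 1247 UMIs (median 786.5) and a member share of 14.6% to 38.2% (median 19.6%). Ighg1 led in every one and took 812 of their 817 heavy chain UMIs. Their Igkc UMIs per heavy chain UMI ran from 1.59 to 2.94. Mzb1, a chaperone of antibody assembly, had a UMI in 13 of them and Sdc1 in 1. A heavy chain variable gene was read in 1 cell and a kappa variable gene in 2, 9 had no CD3 UMI, and 2 clustered with T cell-like cells.

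J chain UMIs were read in antibody-rich cells of each leading heavy chain found, Ighm, Igha, Ighg2b and Ighg1. Per heavy chain UMI they came to 0.982 in the IgM cell, 0.322, 0.223 and 0.233 in the Igha cells, and 0.428 in the IgG2b cell. In the deep IgG1 cells they ran from 0.142 and 0.229 in PBS to 0.597, 0.281, 0.324 and 0.199 in D-CAN. The IgM cell had the most, and the Igha cells lay inside the range of the IgG1 cells, whose heavy chain has GGT in place of the cysteine codon. With 1 IgM and 3 Igha cells, no order between isotypes could be tested.

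Genes of the antibody secretion list were higher in the deep antibody-rich cells than in the other B cell-like cells of the same SAT library, after the members were taken out of the totals. In SAT PBS 8 of 9 measured genes of the list were at least 2-fold higher, where 28.0% of 5585 genes were, and the median log2 ratio was 3.94 against 0.29 for all genes. In SAT D-CAN 9 of 10 were higher, where 24.6% of 6005 genes were, with a median of 4.90 against -0.01. A gene counted as measured with at least 20 UMIs over both sets of cells. Creld2 (15 UMIs in other and 19 in antibody-rich cells of PBS, 12 and 23 in D-CAN) passed only through the antibody-rich cells. So did Fkbp11 in D-CAN (4 and 60). That these genes counted as higher was therefore nearly fixed by the filter. Mzb1 was higher by 3.94 (3.72 to 4.16) and 5.01 (4.85 to 5.17) on the log2 scale. Xbp1, the transcription factor of the secretory programme, was higher by 5.23 (4.62 to 5.85) and 5.75 (5.25 to 6.28). Irf4 was the gene of the list that was not: its log2 ratio was 0.16 in PBS and -1.74 in D-CAN. The cells compared are 3 and 5 in number and are not replicates. Deep cells weigh most in these sums. The IgG2b cell of SAT PBS and 2 cells of SAT D-CAN lay in a cluster with cell cycle genes among its leading genes (the cycling cluster). These cells held 85.3% and 64.7% of the UMIs on other genes. Without them 8 of 9 and 9 of 10 genes of the secretion list were higher, with a median of 4.49 and 4.81. In D-CAN 27.2% of all genes were higher. In PBS 62% of 5446 genes were, with a median log2 ratio of 1.35. The 2 cells left in PBS had UMIs of only 1430 and 647 genes. Most genes thus had 0 UMIs there, and their ratios rest on the 0.5 UMI added. The share of all genes is therefore no yardstick for the list in PBS.

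The antigen receptor list went the other way. In SAT PBS 10 of its 13 genes were at least 2-fold lower in the deep antibody-rich cells, where 18.3% of all genes were lower, and in SAT D-CAN 9 of 13, where 27.1% were lower. Of the 13 genes, 6 in PBS and 5 in D-CAN had 0 UMIs in these cells, so their ratios rest on the 0.5 UMI added. For Btk and Blk in PBS (96 and 84 UMIs in the other cells) the interval reached above 0. Cd79a, the signal chain of the receptor, was lower by a log2 ratio of -1.95 (-2.87 to -1.25) and -2.24 (-3.03 to -1.61). Fcmr, the IgM Fc receptor, had 0 UMIs in these cells against 791 and 999 in the others. Cd81, a tetraspanin of the B cell surface, was higher in both libraries (1.10 and 1.39). Without the cycling cluster's cells 7 and 10 of 13 were lower, where 6.39% and 16.2% of all genes were. The 6.39% is no yardstick for the list, since most genes had 0 UMIs in the 2 cells left in PBS. Their ratios there rest on the 0.5 UMI added. With all deep antibody-rich cells, the list's median was -2.47 and -2.24, or -1.60 and -1.59 with the genes at 0 set to their bound of 3 counts. Of the antibody receptor and transport list B2m was higher in both libraries, and the other 4 of 5 measured genes had 0 UMIs in the deep antibody-rich cells. For Pigr and Fcgr2b the interval reached above 0 in both libraries, and with the genes at 0 set to their bound the list's median was 0.42 in PBS and -0.20 in D-CAN. Of the class switch list 0 of 3 and 0 of 5 genes were higher. Without the cells of the cycling cluster 3 of 3 and 0 of 5 were, where 62% and 27.2% of all genes were higher. In PBS neither value is a guide, because of the added UMI. Apex1, with 0 UMIs in the deep cells of PBS, was counted as higher through it alone.

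Cells with B cell markers made up much of the SAT libraries. UMIs of at least 2 of the 12 B cell markers were found in 828 cells of SAT PBS, 29.1% (27.5 to 30.9), and in 665 cells of SAT D-CAN, 35.1% (32.9 to 37.3). Of these, 117 and 21 cells had exactly 2, and a further 294 and 103 cells had 1, so the count in the shallower PBS library depends on where the line is drawn. A cluster that expressed all 12 markers, called B cell-like, held 665 and 630 cells. Of the cells with at least 2 markers, 138 and 18 lay outside this cluster and the cycling one, and 61 and 23 had a CD3 UMI. Without the antibody-rich cells the median cell of the B cell-like cluster had 21 member UMIs in PBS and 27 in D-CAN. This was 1.07% and 1.08% of its UMIs, and no cell passed 3.08%.

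In the B cell-like cluster IgM and IgD prevailed. Each cell with at least 2 heavy chain UMIs of its leading gene was given that gene as isotype. Without the antibody-rich cells, Ighm led in 410 of 569 cells of SAT PBS and 457 of 607 of SAT D-CAN, and Ighd in 155 and 146. Both Ighm and Ighd were read in 75.1% of cells (71.6 to 78.4) in PBS and 86.3% (83.3 to 88.9) in D-CAN. At an equal depth of 1000 UMIs per cell, which leaves out cells with fewer UMIs, the shares were 52.3% and 56.0%.

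A gamma chain led in 4 of 569 cells (0.703%) of SAT PBS and 4 of 607 (0.659%) of SAT D-CAN, a difference of -0.0440 percentage points (-1.23 to 1.10). With the antibody-rich cells of the cluster included, the counts were 18 of 583 (3.09%, 1.84 to 4.84) and 6 of 610 (0.984%, 0.362 to 2.13), a difference of -2.10 points (-3.96 to -0.41). Thinned to 1000 UMIs per cell, these shares were 2.10% and 1.63%, and the difference of -0.47 points (-2.69 to 1.61) includes 0. Of the antibody-rich cells of this cluster, 12 were shallow cells of SAT PBS. Thinning left out 90 cells of the cluster in PBS and 34 in D-CAN with fewer than 1000 UMIs, among them most of these 12. Whether equal depth or the loss of these cells moved the difference was not tested.

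**Figure D4:**
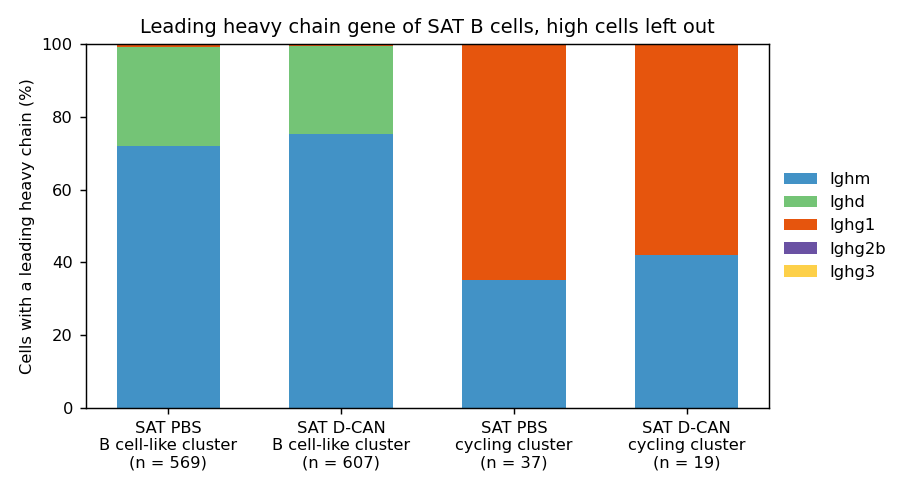
Share of cells (y axis, percent, stacked) led by each heavy chain gene in the B cell-like cluster and among the B cells of the cycling cluster of SAT, without antibody-rich cells, for PBS and D-CAN (n = 569, 607, 37 and 19 cells with a leading gene). Ighm and Ighd fill all but 0.703% and 0.659% of the first pair of bars, and Ighg1 takes 64.9% and 57.9% of the second.

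Outside the antibody-rich cells, gamma-led cells were more frequent in another cluster of SAT. Its leading genes included cell cycle genes such as Mki67, Top2a, Pclaf and Birc5, it also expressed T cell markers, and it stays unnamed. The first of its leading genes was the member Ighg2b, of which 1082 UMIs came from the IgG2b antibody-rich cell of SAT PBS. Of its 149 cells in PBS and 59 in D-CAN, 57 and 21 had UMIs of at least 2 B cell markers. Among those with a leading heavy chain and without the antibody-rich cells, Ighg1 led in 24 of 37 in PBS (64.9%, 47.5 to 79.8) and 11 of 19 in D-CAN (57.9%, 33.5 to 79.7). Ighm led in all the rest and Ighd in none.

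The share of gamma-led cells was higher in the cycling cluster than in the B cell-like cluster by 64.2 points (46.7 to 79.1) in PBS and 57.2 points (32.8 to 79.1) in D-CAN. At 1000 UMIs per cell the differences were 66.4 points (38.1 to 87.9) and 39.1 points (11.2 to 72.8). In CPM, Ighg1 was at 843 and 928 in these cycling cells against 33.4 and 14.4 in the B cell-like cluster, Jchain at 816 and 651 against 18.6 and 3.61, and Ighd at 60.5 and 52.6 against 1136 and 1180. Ighm and Igkc differed less than these genes. Ighm was at 677 and 1316 CPM against 1727 and 1981, and Igkc at 4570 and 4678 against 6472 and 6587. Cells of 1 library share its preparation, so these intervals do not speak for mice. Bcl6, the germinal centre repressor, had 9 and 11 UMIs in the cycling cells. In PBS this was 34.0 CPM (15.6 to 64.6) against 23.8 (16.3 to 33.5), where the intervals overlap. In D-CAN it was 72.4 CPM (36.1 to 129) against 25.8 (18.7 to 34.8). Since Bcl6 was open to the clustering, these values are a description.

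Between Igkc and Iglc2, the light chain UMIs of the B cell-like cluster were mostly Igkc. Without the antibody-rich cells, Igkc was read in 96.8% of cells in PBS and 99.0% in D-CAN, with a median of 13 and 15 UMIs. An Iglc2 UMI was also found in most cells, 83.3% and 84.8%, with a median of 2 UMIs in each library. A call needed at least 2 UMIs of Igkc (kappa) or Iglc2 (lambda), and over 4 times as many as of the other. Kappa was called in 389 and 420 cells and lambda in 5 and 1, which is 1.27% (0.413 to 2.94) and 0.238%. A further 230 and 197 cells were unclear. Iglc1 and Iglc3 did not enter the call, so these are shares of Iglc2-led cells and not of all lambda cells. Of the Igkc and Iglc2 UMIs together, Iglc2 made up 15.7% and 15.1% in SAT cells outside the antibody-rich ones but 1.27% and 0.754% inside them. Of the other constant genes, Iglc3 had 892 and 744 UMIs in SAT, Iglc1 396 and 266, and Ighe 12 and 2.

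D-CAN was then set against PBS within the B cell-like cluster of SAT, over 7 members with at least 20 UMIs. With all cells, 1 of the 7 differed by 2-fold or more, Jchain, where 3.45% of 7503 genes did, 1.12% higher and 2.33% lower in D-CAN. Jchain had 539 UMIs (393 CPM) in PBS and 2831 (1657 CPM) in D-CAN, a log2 ratio of 2.08 (1.94 to 2.21). Ighm was higher in D-CAN by 0.73 (0.66 to 0.81) and Igkc by 0.33 (0.31 to 0.36), while Ighg1 was lower, at -0.21 (-0.29 to -0.13). Thinned to 1000 UMIs per cell, without the shallower cells, Jchain was at 0.94 and Ighg1 at -1.18. The 1 member past 2-fold was then Ighg1, lower in D-CAN, where 5.15% of 4955 genes passed it in either direction. The ratio was 0.04 (-0.05 to 0.14) for Ighd, -0.10 (-0.19 to -0.01) for Iglc2 and -0.43 (-0.91 to 0.05) for Ighg3. Ighg2b, with 10 and 0 UMIs, was too low to be measured.

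The ratios of Jchain, Ighg1, Ighm and Igkc moved when the antibody-rich cells were left out, and those of Ighd, Iglc2 and Ighg3 hardly did. Without these cells Jchain had 25 UMIs in PBS and 6 in D-CAN, a log2 ratio of -2.28 (-3.94 to -1.04), the opposite direction. Ighg1 had 45 and 24 UMIs, a ratio of -1.20 (-1.99 to -0.47). Ighm was at 0.20 (0.12 to 0.28), Ighd at 0.05, Igkc at 0.03 (-0.02 to 0.07), Iglc2 at -0.11 and Ighg3 at -0.42. Thus 2 of 7 members passed 2-fold, both lower in D-CAN, where 3.54% of 7458 genes passed it, 1.11% higher and 2.43% lower. Both rested on few UMIs spread over many cells. In fibroblast-, perivascular- and endothelial-like cells of SAT, Igkc was also lower in D-CAN (133.9 CPM in PBS and 13.3 in D-CAN). A difference between B cells and one in such background cannot be told apart here. Of the lists, with all cells, 0 of 13 antigen receptor genes, 1 of 10 secretion genes (Fkbp11, with 9 and 34 UMIs), 0 of 6 class switch genes and 0 of 6 receptor and transport genes passed 2-fold, and without the antibody-rich cells none did. Among B cells gated by at least 2 markers in any cluster, antibody-rich cells included, the Ighg1 ratio was 1.68, from 2072 and 7111 UMIs. The gate adds cells of the cycling cluster, among them antibody-rich cells of SAT D-CAN with 1949 and 2092 Ighg1 UMIs. Without antibody-rich cells, the gated cells of that cluster had 223 Ighg1 UMIs in PBS and 141 in D-CAN. The gate also drops antibody-rich cells of SAT PBS with fewer than 2 B cell markers.

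Over whole libraries the same cells moved the ratio of D-CAN to PBS. In SAT, Ighg1 had a log2 ratio of 1.05 (0.99 to 1.12) over all cells and -1.01 (-1.27 to -0.75) without the antibody-rich ones, and Jchain 1.44 and -1.54. In the tumors Igkc had 1.04 over all cells and -1.75 without them, and Igha 0.66 and -1.67. Ighm kept its direction in both tissues, with 0.86 and 0.77 in the tumors and 0.69 and 0.26 in SAT.

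Member UMIs were also read in cells of types that should lack these genes. In fibroblast-, perivascular- and endothelial-like cells, pooled and thinned to 1000 UMIs, an Igkc UMI was found in 14.5% (10.9 to 18.7) of 332 cells of SAT PBS and 1.87% (0.512 to 4.72) of 214 cells of SAT D-CAN. In the tumors the shares were 0.881% (0.107 to 3.15) of 227 cells and 0 of 133. In B cell-like cells of SAT PBS it was 98.4%. Thinning left out the shallower cells, so that 332 of 515 stromal and vascular cells stayed in SAT PBS and 214 of 224 in SAT D-CAN. The Igkc level in these stromal and vascular cells was 134 CPM in SAT PBS and 13.3 in SAT D-CAN, 13.7 in Tumor PBS and 2.68 in Tumor D-CAN. The background was thus higher in SAT PBS than in SAT D-CAN, although the library's own Igkc level was lower. Within SAT PBS the thinned share ran from 5.23% in T cell-like cells through 10.1% in endothelial-, 10.6% in macrophage- and 11.8% in fibroblast-like cells to 20.4% in perivascular-like cells.

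Ighm did not follow Igkc in every cell type. Of the Ighm and Igkc UMIs together, Ighm made up 21.1% in PBS and 23.1% in D-CAN of B cell-like cells of SAT without the antibody-rich ones. In the stromal and vascular cells it was 15.6% (11.0 to 21.1) and 34.6% (17.2 to 55.7). In T cell-like cells it was 70.7% (65.6 to 75.5) and 82.0% (76.9 to 86.3), and in macrophage-like cells 63.8% (55.2 to 71.8) and 89.5% (82.7 to 94.3). Macrophage-like cells of the tumors, where B cells were nearly absent, had 80.5% (65.1 to 91.2) in PBS and 87.5% (74.8 to 95.3) in D-CAN. The intervals of T cell-like and macrophage-like cells of SAT lay above the share in B cell-like cells.

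**Figure D5:**
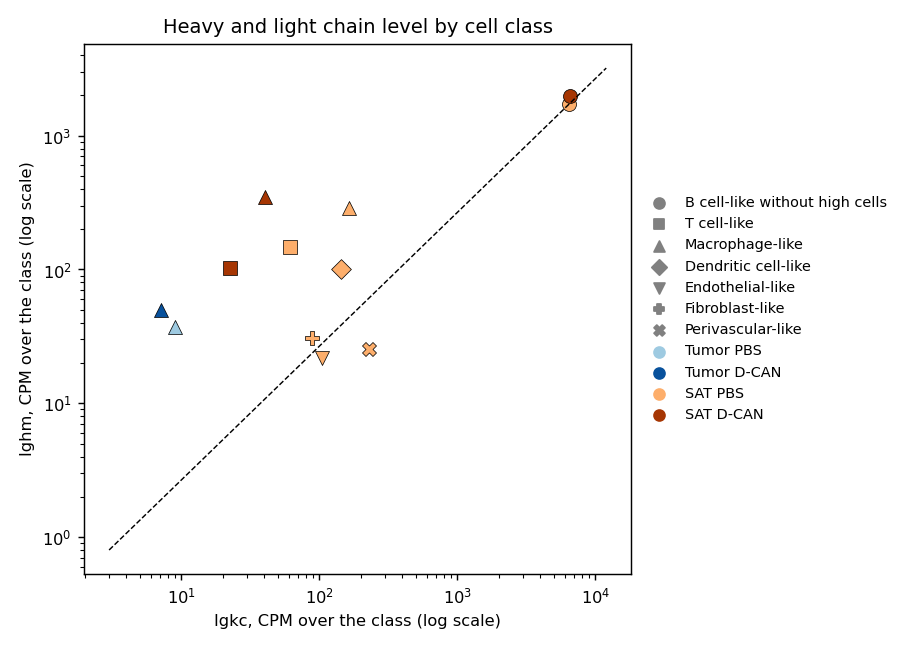
Ighm level (y axis) against Igkc level (x axis), both in CPM on log axes, in cell classes of the 4 libraries. Cancer-like cells and unnamed clusters are left out, and the tumors show macrophage-like cells only. SAT D-CAN shows B cell-like, T cell-like and macrophage-like cells. A dashed line marks the ratio found in B cell-like cells of SAT PBS without antibody-rich cells. T cell-like and macrophage-like cells lie above the line, with Ighm at up to 148 CPM in T cell-like cells and 37.1 to 345 CPM in macrophage-like cells. In SAT PBS dendritic cell-like and fibroblast-like cells also lie above it, and endothelial-like and perivascular-like cells below it.

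Most of these Ighm-positive cells had no light chain UMI. Among T cell-like cells with an Ighm UMI, 145 of 171 in SAT PBS and 152 of 165 in SAT D-CAN had neither Igkc nor Iglc2, against 8 of 583 and 3 of 604 Ighm-positive B cell-like cells. In macrophage-like cells the counts were 26 of 43 and 31 of 36 in SAT and 27 of 27 and 26 of 26 in the tumors. In the stromal and vascular cells of SAT they were 20 of 33 in PBS and 6 of 7 in D-CAN. The lack of a light chain UMI was thus not particular to T cell-like and macrophage-like cells. An unnamed SAT cluster led by the lymphocyte genes Ncr1, Ifng and Xcl1 had an Ighm share of 85.6% and 89.1%. Whether these UMIs come from the constant exons of Ighm or from transcripts nearby could not be told from 3′ counts.

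Ighg1 in the tumors was read mostly in cancer-like cells, and it had no UMI in the antibody-rich ones. Cancer-like cells held 106 of the 114 Ighg1 UMIs of Tumor PBS (93%) and 91 of 93 in Tumor D-CAN (97.8%), at 7.20 CPM (5.90 to 8.71) and 7.14 CPM (5.75 to 8.76). These cells also held 82.1% and 81.7% of all UMIs, and the level over the whole libraries was 6.36 and 5.96 CPM. A UMI was read in 66 of 1333 cells (4.95%) and 36 of 682 (5.28%). The level differed between the cancer-like clusters: it was 16.7 CPM (12.9 to 21.3) and 22.9 CPM (18 to 28.6) in the one led by kallikrein genes such as Klk1b24 and Klk1b27 (3 of 8 cancer markers detected), and 1.07 and 0.240 CPM in another. Up to 7 UMIs in PBS and 9 in D-CAN fell in 1 cell. Of the cells with at least 2 Ighg1 UMIs, 23 in PBS and 18 in D-CAN, none had a light chain UMI.

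Over 24 pools of cells (class by library) and 11603 genes, the genes whose log2 level followed a member most closely were described by Pearson's r, across pools that share libraries. For Ighd they were Cd79a (0.986), Cr2 (0.981) and Ms4a1 (0.970), and for Igkc Cd79a (0.961), Ms4a1 (0.958) and Cr2 (0.95), all of them B cell surface genes. For Ighm they were Cd37 (0.955), Nfkbid (0.949) and Stap1 (0.943). Jchain followed Ffar1 (0.845), Vpreb3 (0.836) and Gm31243 (0.809) less closely. Igha, which rested on 3 cells, had Faim2 (0.763), Pgd (0.738) and Slc26a11 (0.724).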

How the data were processed

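The authors deposited whole-number UMI counts per gene and cell barcode, made from 10x 3′ v3 libraries with Cell Ranger 3.1.0 (header of SAT D-CAN: 3.0.2), STAR 2.6, mm10 and Ensembl annotation. Cells with at least 200 genes were kept. Each tissue was clustered in Seurat 5.3.0 (R 4.3.3) without immunoglobulin genes, and clusters were named "-like" from fixed marker lists. A name needed at least 3 markers. Where the next class also had at least 3, it needed a lead of over 2, unless the cluster's leading genes decided. Rules on leading genes and depth could leave a cluster unnamed. These thresholds were set after clusters were seen. No doublet caller was run and no doublets were removed. The members and gene lists were chosen with earlier results of these data known; all 10 members are named, with the 3 most alike genes for 5 of them. Raw counts were summed and described with exact binomial and Poisson intervals (Python 3.11.15, scipy 1.17.1), log2 ratios with 0.5 UMI added, for genes with at least 20 UMIs. Shares were compared after thinning to 1000 UMIs, which left out cells with fewer UMIs. Stromal and vascular cells leave out barcodes with 2 B or 3 plasma markers and antibody-rich cells. With 1 library per group no test was possible. The scripts were tested on simulated counts. Some items are not reported here.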

Additional observations from a re-analysis of the deposited data

Results flagged for a closer look

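The level of Ighg1 in D-CAN relative to PBS had opposite directions in the 2 tissues. The log2 ratio was -0.0928 in the tumors, with an interval from -0.51 to 0.31 that includes 0, and 1.05 in SAT. With 1 library in each group, the difference between the tissues was not tested. In SAT D-CAN 97.4% of the Ighg1 UMIs lay in 5 antibody-rich cells. In Tumor D-CAN 97.8% lay in cancer-like cells, which held 81.7% of all UMIs, and in Tumor PBS 93%, where these cells held 82.1%. Without the antibody-rich cells the SAT ratio was -1.01 (-1.27 to -0.75), the same direction as in the tumors.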

How the results depend on the processing

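Leaving out antibody-rich cells moved the summed levels in every library. Leaving out all of them, unlike the top cell or the 5 top cells of a library, was an alternative chosen after seeing the data, as was leaving the cycling cluster out of the deep antibody-rich cells. The summed level was 50.3, 20.4 and 21.2 CPM under these 3 settings in Tumor PBS, 15.9, 13.5 and 15.9 in Tumor D-CAN, 4201, 3120 and 2812 in SAT PBS, and 6614, 2858 and 2858 in SAT D-CAN. Without the top cell the 10 top cells held 62.0%, 28.2%, 31.1% and 59.2% of the member UMIs, and 1 antibody-rich cell was left in Tumor PBS and 0 in Tumor D-CAN. With cells of at least 500 genes the summed level was 93.8 CPM in Tumor PBS, 5051 in SAT PBS and 7890 in SAT D-CAN, the top 10 cells held 80.6% in Tumor PBS and 46.4% in SAT PBS, antibody-rich cells numbered 1 and 3 there, and the gamma-led share of SAT PBS was 0.746%. A line at 20% of UMIs left 9 antibody-rich cells in SAT PBS. The gamma-led share was 5.16% in PBS and 2.96% in D-CAN among B cells gated by 2 markers in any cluster, and 0.703% in PBS without the antibody-rich cells. Without thinning, Igkc was read in 4.40% of stromal and vascular cells of Tumor PBS, 24.1% of SAT PBS and 6.70% of SAT D-CAN; it was 10.1% in SAT PBS without cells with any B marker UMI and 0.493% in SAT D-CAN with at most 20% mitochondrial UMIs. Members past 2-fold between D-CAN and PBS numbered 2 of 7 without the 5 top cells, where 3.64% of 7444 genes passed it. They numbered 3 of 8 in gated cells (7.03% of 8815 genes) and 2 of 7 without antibody-rich cells (3.54% of 7458). Jchain reversed to -4.91 without the 5 top cells and to -2.28 without all antibody-rich cells. A further 16 log2 ratios of single genes moved, and the sign changed for Igkc (-0.08 when thinned, -0.11 without the 5 top cells) and, in gated cells, for Ighg1 (1.68) and Iglc2 (0.09); Ighg1 was at -4.54 without the 5 top cells. The causes were not tested. Of the other values, 62 main values and 52 of single genes stayed within counting error or 1.5 times. No paired analysis was possible because each group has 1 library. Depth limits SAT PBS most, whose median cell had 1707 UMIs, and in the tumors the few B lineage cells set the precision.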
